A study of Mus musculus with 24 samples.

Results

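The ubiquitin ligases linked to muscle wasting and the forkhead factors that drive their transcription were followed in optically paced muscle. The group holds 10 genes, chosen by name: 7 ubiquitin ligase genes (Fbxo32, Trim63, Trim54, Trim55, Fbxo30, Fbxo40 and Asb2) and 3 forkhead box O genes (Foxo1, Foxo3 and Foxo4). Each was found once among the 56941 genes of the tables, and all 10 were among the 13318 genes that passed the filter on low counts. The cells were C2C12, an established mouse myoblast line, carrying a channelrhodopsin-2 and tdTomato fusion (ChR2::tdTomato), so that blue light makes the muscle contract. They were differentiated into monolayers in horse serum with insulin-like growth factor 1 (IGF-1), which every group received, the controls included. Controls got no light, and the other cultures got 30 min of light every day at 1 Hz, 4 Hz or 10 Hz for about 2 weeks before RNA was extracted, with 6 libraries in each of the 4 conditions. The model is 1 cell line without nerve, vessels or load other than its own contraction. The study describes spontaneous twitching in cultures without light. The methods give the 6 libraries of a condition as biological replicates in 24-well plates, and the p-values measure the spread between such cultures of the same line.

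Muscle protein is broken down largely by the ubiquitin-proteasome system, in which a ligase marks a protein with ubiquitin and the proteasome digests it. Atrogin-1, the product of Fbxo32, and MuRF1, the product of Trim63, are the ligases known for rising in almost every kind of muscle wasting, and FoxO1 and FoxO3 are the transcription factors known to switch both genes on. Insulin and IGF-1 act through the kinase Akt, which phosphorylates FoxO proteins and keeps them out of the nucleus. FoxO activity is therefore set mostly by where the protein is, which RNA levels do not report.

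Promoter sequence is shown for 4 genes, 250 bases upstream of the start of the canonical transcript (GENCODE M39 on GRCm39): for Trim63 because its promoter is the textbook FoxO and glucocorticoid target of the group, for Fbxo32 as its partner in atrophy, and for Asb2 and Trim55 because their RNA differed most from control. Capitals mark the motifs searched on both strands: the FoxO core GTAAACA, the E-box CANNTG that myogenic factors bind, the MEF2 motif (CTA and TAG with any 4 bases between), and the inner letters of a glucocorticoid response element (GAACA and TGTTC with any 3 bases between), added after the Trim63 sequence had been read.
Trim63, chr4:134042143-134042392, plus strand: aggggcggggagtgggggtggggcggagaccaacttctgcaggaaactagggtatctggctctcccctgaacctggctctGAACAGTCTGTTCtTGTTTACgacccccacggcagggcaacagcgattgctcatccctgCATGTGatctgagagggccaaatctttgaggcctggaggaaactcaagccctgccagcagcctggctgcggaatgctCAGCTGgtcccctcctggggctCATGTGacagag
Fbxo32, chr15:58078742-58078991, minus strand: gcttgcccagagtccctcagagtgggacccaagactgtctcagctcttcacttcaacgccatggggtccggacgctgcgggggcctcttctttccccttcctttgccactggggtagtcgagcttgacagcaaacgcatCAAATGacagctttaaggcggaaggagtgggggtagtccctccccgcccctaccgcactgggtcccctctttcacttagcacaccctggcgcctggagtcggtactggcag
Asb2, chr12:103322485-103322734, minus strand: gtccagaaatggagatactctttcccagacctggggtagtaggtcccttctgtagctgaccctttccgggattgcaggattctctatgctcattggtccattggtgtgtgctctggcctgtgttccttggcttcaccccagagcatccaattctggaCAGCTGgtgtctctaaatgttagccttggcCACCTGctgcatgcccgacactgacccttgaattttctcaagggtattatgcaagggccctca
Trim55, chr3:19698321-19698570, plus strand: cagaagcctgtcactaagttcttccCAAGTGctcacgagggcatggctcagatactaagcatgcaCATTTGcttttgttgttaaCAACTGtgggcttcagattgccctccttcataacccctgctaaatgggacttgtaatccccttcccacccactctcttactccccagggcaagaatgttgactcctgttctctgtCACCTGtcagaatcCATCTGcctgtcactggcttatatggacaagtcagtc

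The Trim63 window held the glucocorticoid motif at bases -170 to -158 and, separated from it by a single base, the FoxO core in reverse at -156 to -150, counted from the start site. It was the only member whose window held the FoxO core, which was present in 2.72% of 21757 protein-coding promoters of the same length, and the only member with the glucocorticoid motif, present in 0.023% of them. E-boxes were found in 9 of the 10 members, Trim55 holding 5, Trim63, Trim54 and Fbxo40 3 each and Asb2 2, against 64.8% of all promoters with at least 1. None of the 10 windows held the MEF2 motif, which 3.31% of all promoters did. These matches describe letters in a short window and say nothing about binding or about more distant elements.

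Library totals ranged from 4085578 to 15194554 estimated counts, with a median of 7481117. The cultures carried muscle RNA as labelled: the summed level of 14 muscle markers was 10160 to 13000 TPM in control (TPM, transcript abundance scaled to length and to a common total), 15500 to 19870 at 1 Hz, 15430 to 22010 at 4 Hz and 10530 to 17050 at 10 Hz, and 12 of the 14 rose at 1 Hz and at 4 Hz. Markers of neurons and glia summed to 0.457 to 3.73 TPM with none of the 6 passing the filter. Among 8 endothelial and immune markers Cd68 alone was tested. Cd68 lay at 86.2 to 168 TPM and Ptprc at 0 to 0.0317 TPM. Small RNAs without a poly(A) tail, which poly(A) selection should remove, made up 96.5 to 167 CPM in control (CPM, counts scaled to a common library size), 14.6 to 69.6 at 1 Hz, 17.2 to 50.0 at 4 Hz and 37.0 to 272 at 10 Hz. This share did not overlap between control and 1 Hz or 4 Hz, and the protocol names ribodepletion for some low-input libraries without saying which.

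Compared per transcript length, in TPM, the order in control ran from Trim54 (mean 81.3 TPM) through Trim63 (64.3), Fbxo30 (60.1), Trim55 (48.5), Foxo3 (32.3), Fbxo40 (18.2), Foxo4 (16.9), Fbxo32 (9.01) and Asb2 (8.94) to Foxo1 (5.98). Only the step from Foxo4 to Fbxo32 separated all 6 control libraries of the higher gene from all 6 of the lower, and every other neighbouring pair overlapped. MuRF1 RNA was thus present at a higher level than atrogin-1 RNA in every control library, 40.2 to 94.4 against 6.66 to 13.5 TPM. Asb2 rose from ninth place to the seventh at 1 Hz and 4 Hz and lay eighth at 10 Hz.

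**Figure D1:**
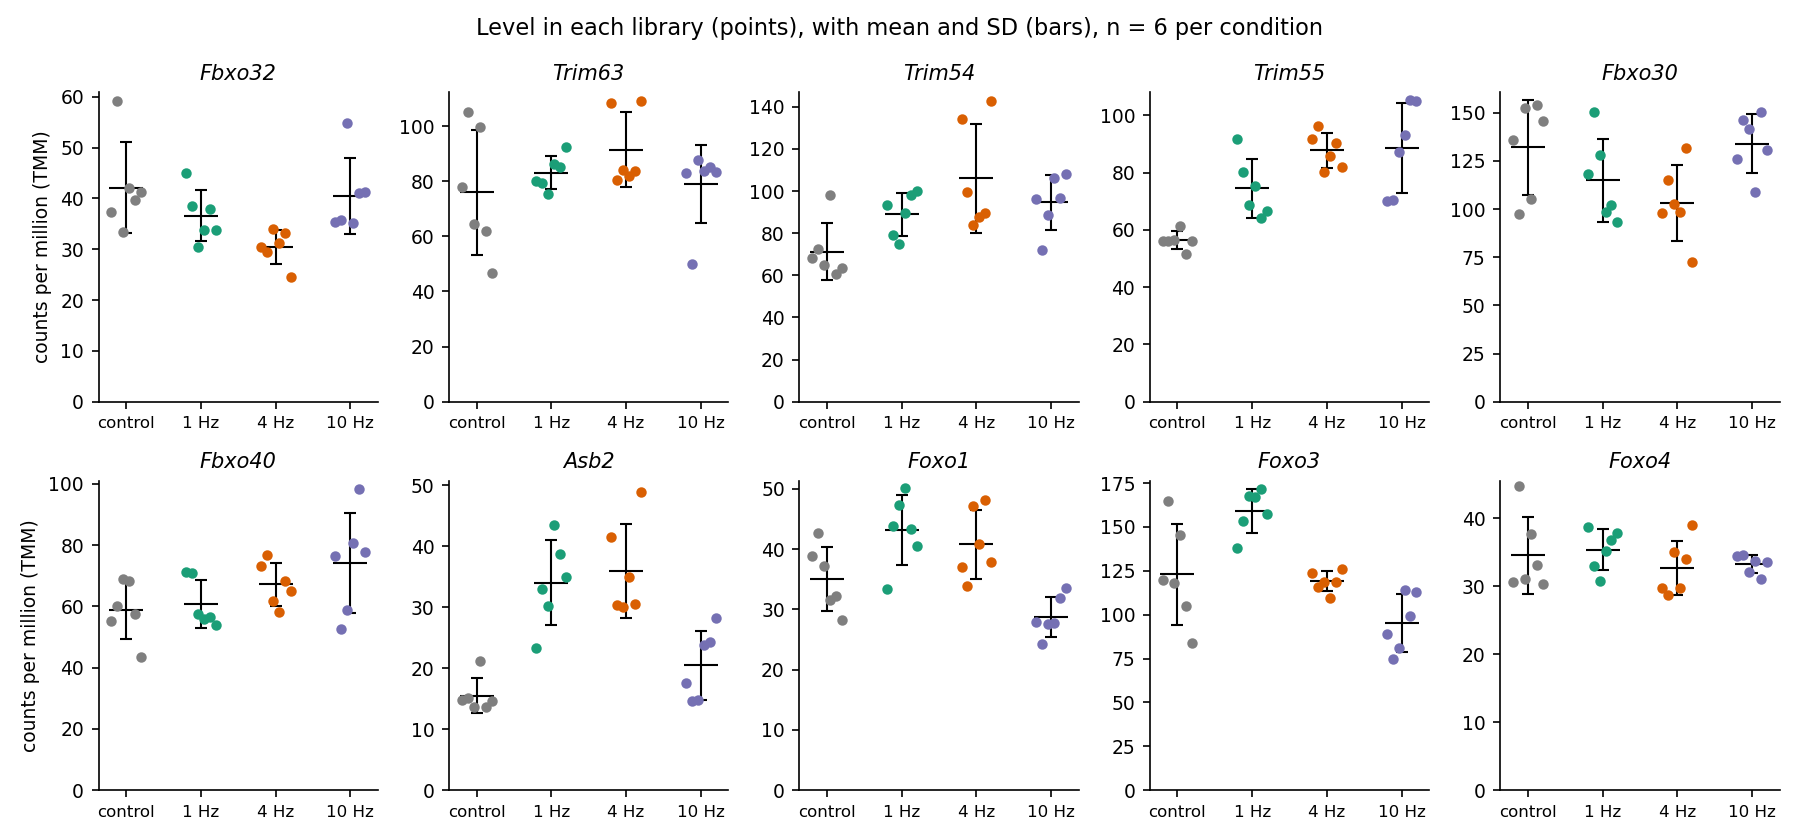
Level of the 10 genes in CPM (vertical axis, scaled by the TMM method) in each of 24 libraries, by condition (horizontal axis); points are libraries and black bars the mean with SD, n = 6. Asb2 stood above every control library at 1 Hz and 4 Hz, Trim55 at all 3 frequencies, and the 4 Hz libraries of Fbxo32 were all at or below 34 CPM.

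Differences were tested with edgeR's quasi-likelihood test in 1 fit of all 24 libraries, with p-values adjusted by the Benjamini-Hochberg method over all 13318 genes. A gene is said to have risen or fallen where its adjusted p was under 0.05, and to be called where its absolute log2 fold change was also above 0.5, the study's rule. At 1 Hz 4 of the 10 genes rose and none fell, where 18.1% of all genes tested rose and 17.3% fell, and 1 was called against 18.3% of all genes. At 4 Hz 3 rose and 2 fell, where 19.2% of all genes rose and 20.2% fell, and 3 were called against 20.1%. At 10 Hz 1 rose and none fell, where 2.67% of all genes rose and 2.22% fell, and 1 was called against 1.86%. Counted in both directions, the share of the group that changed was close to that of all genes at 1 Hz and 4 Hz. The libraries of Trim55 and Asb2 did not overlap control at 1 Hz, where 13.1% of all genes did not, nor at 4 Hz (16.6%), and those of Trim55 did not at 10 Hz (2.58%).

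**Figure D2:**
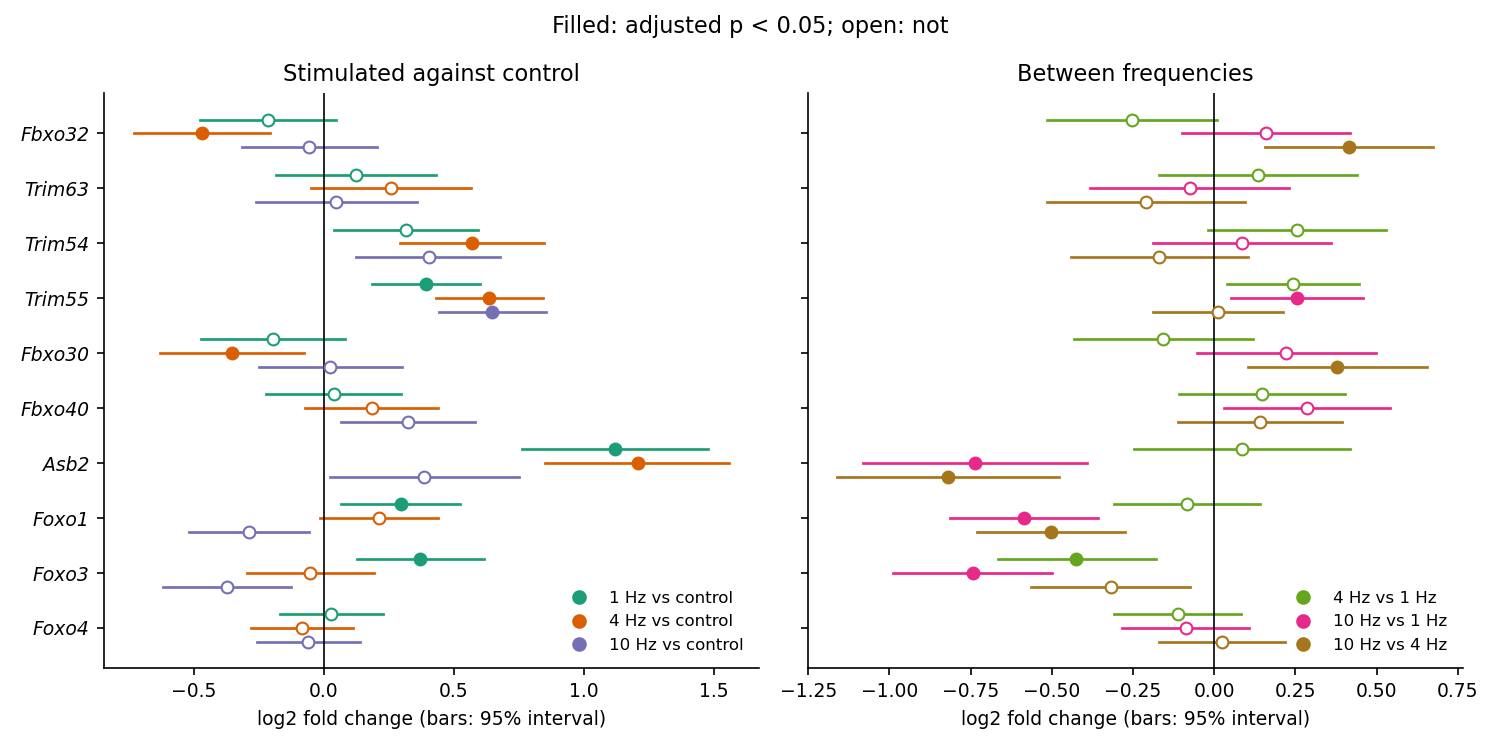
log2 fold change of each gene (horizontal axis) against control (left) and between frequencies (right), with 95% intervals as bars and filled points where the adjusted p was under 0.05. Asb2 at 1 Hz and 4 Hz lies farthest to the right, at 1.12 and 1.21, and Asb2, Foxo1 and Foxo3 lie to the left at 10 Hz against 1 Hz.

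Asb2 had the largest fold changes of the 10 genes at 1 Hz and 4 Hz against control. It encodes the substrate receptor of a cullin 5 ligase that directs filamins to the proteasome during muscle differentiation (chr12:103283687-103334012, minus strand, with 10 exons in the canonical transcript and 48 annotated transcripts). In the 6 control libraries Asb2 lay between 13.7 and 21.2 CPM with a median of 14.7, and at 1 Hz between 23.3 and 43.5 with a median of 34 CPM. At 4 Hz it lay between 30 and 49 CPM with a median of 32.7, and at 10 Hz between 14.6 and 28.2 with a median of 20.6 CPM. Every 1 Hz and 4 Hz library was above every control library, while 3 of the 6 libraries at 10 Hz were. Asb2 rose 2.18-fold at 1 Hz (log2 fold change 1.12 ± 0.17 SE, adjusted p = 3.69e-05) and 2.31-fold at 4 Hz (1.21 ± 0.17, adjusted p = 8.14e-06). At 10 Hz the log2 fold change was 0.39 with a 95% interval of 0.02 to 0.75 (adjusted p = 0.21). The summed muscle markers given above were also higher at 1 Hz and 4 Hz in every library than in control. In bulk RNA a larger share of muscle cells cannot be told apart from more RNA per cell.

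The 3 MuRF genes encode closely related RING-finger ligases of muscle, which can pair with each other. MuRF1 is known to bind titin near the M-band. Trim63 encodes MuRF1, which targets myosin heavy chain and other thick-filament proteins in wasting muscle (chr4:134042393-134056948, plus strand, 7 exons). It lay between 46.7 and 105 CPM in control with a median of 71.3, between 75.5 and 92.4 at 1 Hz (median 82.8), between 80.5 and 109 at 4 Hz (median 84) and between 50.1 and 87.6 CPM at 10 Hz (median 83.6). The control libraries spanned more than a 2-fold range, and the 1 Hz and 10 Hz libraries all lay below the highest of them. Trim63 did not pass the test at any frequency: the log2 fold change was 0.12 at 1 Hz (95% interval -0.18 to 0.43), 0.26 at 4 Hz (-0.05 to 0.57) and 0.05 at 10 Hz (-0.26 to 0.36), with adjusted p = 0.547, 0.172 and 0.903. Without control replicate 2 the 4 Hz value was 0.38 and passed, with adjusted p = 0.0481.

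Trim55 encodes MuRF2, a MuRF found with microtubules and titin while sarcomeres assemble (chr3:19698571-19746771, plus strand, 10 exons). Its counts were tight in control, between 51.6 and 61.4 CPM with a median of 56.2, and higher in every library given light: 64.3 to 91.7 at 1 Hz (median 72), 80.4 to 96.4 at 4 Hz (median 88) and 70.2 to 106 CPM at 10 Hz (median 90.2). No library given light overlapped control. Trim55 rose 1.31-fold at 1 Hz (log2 fold change 0.39 ± 0.10 SE, adjusted p = 0.00374), 1.55-fold at 4 Hz (0.64 ± 0.10, adjusted p = 2.55e-05) and 1.57-fold at 10 Hz (0.65 ± 0.10, adjusted p = 0.000603). It was the only one of the 10 genes that passed at 10 Hz.

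The Trim55 result depended on the scale. Dividing each gene's estimated counts by its TPM in the same library gives an effective transcript length, which moves when reads are assigned to a different mix of long and short transcripts, and Trim55 has 15 annotated coding transcripts of 966 to 8219 bases. Relative to its own typical value, this length averaged 0.9 in control (0.69 to 1.05), 1.09 at 1 Hz (0.888 to 1.19), 1.07 at 4 Hz (0.932 to 1.18) and 0.98 at 10 Hz (0.877 to 1.09), while that of Trim63 stayed between 0.994 and 1 in all 24 libraries. In TPM the Trim55 groups overlapped: 41.5 to 60.4 in control, 39.3 to 72.3 at 1 Hz, 50 to 73.1 at 4 Hz and 46.2 to 75.8 TPM at 10 Hz. Tested by limma on log2(TPM + 1), Trim55 was 0.06 higher at 1 Hz (adjusted p = 0.803), 0.19 at 4 Hz (adjusted p = 0.314) and 0.39 at 10 Hz (adjusted p = 0.114). None of the 3 differences passed on this scale. Fbxo40 (relative length 0.633 to 1.18) and Asb2 (0.618 to 1.06) also varied in this measure, at the 93.5th and 82.1st percentile of 9626 genes, with Trim55 at the 82.8th. Asb2 was higher on the log2(TPM + 1) scale too, by 1.14 at 1 Hz and 1.01 at 4 Hz (adjusted p = 0.000109 and 0.000128). The scales differ in more than length. On log2(TPM + 1) the median of all genes was -0.06 at 1 Hz, -0.164 at 4 Hz and -0.0905 at 10 Hz. In the edgeR fit it was -0.00723, -0.0144 and -0.00644. How much of the Trim55 difference between the scales came from length was not tested.

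**Figure D3:**
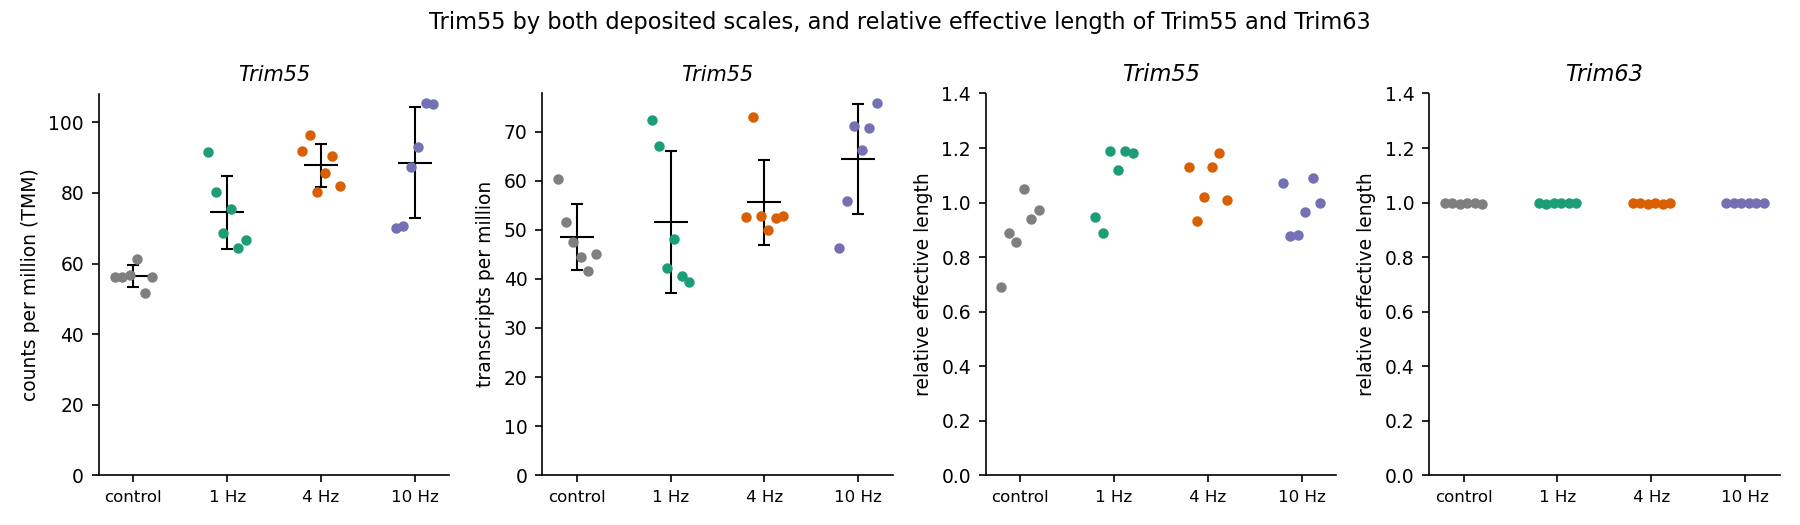
Trim55 in CPM and in TPM (2 left panels, points are libraries, bars the mean with SD, n = 6), and the effective length relative to each gene's typical value for Trim55 and Trim63 (2 right panels). Counts of Trim55 separate control from every library given light, TPM do not, and its relative length runs from 0.69 to 1.19 while that of Trim63 stays at about 1.

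Trim54 encodes MuRF3, which binds and steadies microtubules in muscle (chr5:31273911-31298846, plus strand, 9 exons). It lay between 60.6 and 98.1 CPM in control (median 66.6), 75.1 and 100 at 1 Hz (median 91.4), 83.9 and 143 at 4 Hz (median 94.6) and 72.1 and 108 CPM at 10 Hz (median 96.4). Control replicate 4 stood apart at 98.1 CPM. Without it every 1 Hz and 4 Hz library was above every control, while 10 Hz replicate 2 (72.1 CPM) still lay just below control replicate 2 (72.5 CPM). Trim54 rose 1.49-fold at 4 Hz (log2 fold change 0.57 ± 0.14 SE, adjusted p = 0.00154). The log2 fold change was 0.32 at 1 Hz (adjusted p = 0.0703) and 0.40 at 10 Hz (adjusted p = 0.0798), and without control replicate 4 these were 0.43 (adjusted p = 0.012) and 0.52 (adjusted p = 0.0218). Leaving out 1 Hz replicate 3 also brought the 1 Hz value to 0.37 (adjusted p = 0.0483), and 10 Hz replicate 2 the 10 Hz value to 0.47 (adjusted p = 0.043). Of the summed TPM of the 3 MuRF genes, Trim54 held a mean of 42% in control and 44.3% to 45.8% with light, Trim63 32.5% in control and 27.2% to 31.1% with light, and Trim55 25.5% and 23.8% to 28.6%.

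None of the 3 F-box ligase genes passed the test upward against control. Fbxo32 encodes atrogin-1, whose best known targets are MyoD and the translation factor eIF3f (chr15:58039275-58078741, minus strand, 9 exons). It lay between 33.4 and 59.2 CPM in control (median 40.5), 30.4 and 44.9 at 1 Hz (median 35.9), 24.6 and 34 at 4 Hz (median 30.9) and 35.1 and 54.8 CPM at 10 Hz (median 38.4). At 4 Hz 5 of the 6 libraries were below every control library. Fbxo32 fell by 27.8% at 4 Hz (log2 fold change -0.47 ± 0.13 SE, adjusted p = 0.00494), and this held when any single library was left out. With the small RNA share as a covariate it was -0.42 and did not pass (adjusted p = 0.284). The values at 1 Hz, -0.21 (95% interval -0.48 to 0.05, adjusted p = 0.197), and at 10 Hz, -0.06 (-0.32 to 0.20, adjusted p = 0.86), did not pass.

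Fbxo30 encodes MUSA1, an F-box ligase known from denervated muscle (chr10:11156770-11173806, plus strand, 3 exons). It lay between 97.3 and 154 CPM in control (median 141), 93.5 and 150 at 1 Hz (median 110), 72.5 and 132 at 4 Hz (median 101) and 109 and 150 CPM at 10 Hz (median 136), and all groups overlapped. Fbxo30 fell by 21.8% at 4 Hz (log2 fold change -0.35 ± 0.13 SE, adjusted p = 0.0384), a result lost on leaving out any of 8 of the 12 libraries compared (4 Hz replicates 1, 3, 4 and 6 and control replicates 1, 3, 5 and 6), when the adjusted p reached up to 0.119. Fbxo40 encodes a muscle F-box protein that directs IRS1, the adaptor of the insulin and IGF-1 receptors, to degradation (chr16:36783822-36810902, minus strand, 4 exons). It lay between 43.3 and 69 CPM in control (median 58.8), 53.8 and 71.1 at 1 Hz (median 57), 58.1 and 76.7 at 4 Hz (median 66.7) and 52.7 and 98.3 CPM at 10 Hz (median 77.1). The 10 Hz value was the largest, 0.32 (95% interval 0.07 to 0.58, adjusted p = 0.132), with 4 of 6 libraries above every control library, and it passed without 10 Hz replicate 2 (0.40, adjusted p = 0.049).

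Foxo1 and Foxo3 were higher at 1 Hz than at 10 Hz, with the control mean between them. Foxo1 encodes a FoxO factor known for turning on gluconeogenic and atrophy genes (chr3:52175757-52260642, plus strand, 3 exons). It lay between 28.2 and 42.6 CPM in control (median 34.7), 33.3 and 50.1 at 1 Hz (median 43.6), 33.9 and 48.1 at 4 Hz (median 39.4) and 24.3 and 33.5 CPM at 10 Hz (median 27.8). At 10 Hz 4 of the 6 libraries were below every control library, and at 1 Hz 4 were above. Foxo1 rose 1.23-fold at 1 Hz (log2 fold change 0.30 ± 0.11 SE, adjusted p = 0.0395), which was lost on leaving out any of 7 of the 12 libraries (1 Hz replicates 2, 3, 4 and 5 and control replicates 4, 5 and 6, adjusted p up to 0.103) and on the TPM scale (adjusted p = 0.186). At 4 Hz it was 0.21 (adjusted p = 0.128, and 0.0459 without control replicate 2) and at 10 Hz -0.29 (95% interval -0.52 to -0.06, adjusted p = 0.136).

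Foxo3 encodes the FoxO factor best known for driving atrogin-1 and the autophagy genes in muscle (chr10:42057837-42154007, minus strand, 4 exons). It lay between 84.1 and 165 CPM in control (median 119), 138 and 172 at 1 Hz (median 162), 110 and 126 at 4 Hz (median 119) and 74.6 and 114 CPM at 10 Hz (median 94.2). The control libraries covered nearly the whole range of the other conditions. Foxo3 rose 1.29-fold at 1 Hz (log2 fold change 0.37 ± 0.12 SE, adjusted p = 0.0171), which was lost on the TPM scale (adjusted p = 0.136) and with scaling to the total count (adjusted p = 0.0683). At 4 Hz the value was -0.05 (adjusted p = 0.753) and at 10 Hz -0.37 (adjusted p = 0.0685, and 0.0159 without control replicate 6). Over the other scalings, filters and models tried the adjusted p of the 10 Hz value ran from 0.0153, with the small RNA share as a covariate, to 0.173. Foxo4, the third FoxO gene (chrX:100298073-100304479, plus strand, 3 exons), lay between 30.3 and 44.8 CPM in control, 30.9 and 38.7 at 1 Hz, 28.7 and 39.1 at 4 Hz and 31.1 and 34.6 CPM at 10 Hz. Its log2 fold changes were 0.03, -0.08 and -0.06 at 1, 4 and 10 Hz, with intervals between -0.28 and 0.23 and adjusted p from 0.51 to 0.845. Of the summed TPM of the 3 FoxO genes, Foxo3 held a mean of 58.2% in control and 54.1% at 10 Hz, and Foxo4 30.8% and 35.4%.

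From 1 Hz to 4 Hz none of the 10 genes rose and 1 fell (5.71% of all genes rose and 6.56% fell). At 10 Hz against 1 Hz 1 rose and 3 fell (17.7% and 18.5% of all genes), and at 10 Hz against 4 Hz 2 rose and 2 fell (10.9% and 11.9%). Called genes numbered 0 (3% of all genes), 3 (17.9%) and 2 (11%). These comparisons share libraries with each other and with those against control, so their values are set side by side. Foxo3 fell by 25.5% from 1 Hz to 4 Hz (log2 fold change -0.42 ± 0.12 SE, adjusted p = 0.02) without overlap of the libraries (5.7% of all genes), and missed the threshold without 1 Hz replicate 5 (adjusted p = 0.0501) or 4 Hz replicate 4 (adjusted p = 0.0512).

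At 10 Hz against 1 Hz, Foxo3 fell by 40.2% (log2 fold change -0.74 ± 0.12 SE, adjusted p = 4.11e-05), with every 10 Hz library below every 1 Hz library (13.2% of all genes did not overlap). Asb2 fell by 39.9% (-0.73 ± 0.17, adjusted p = 0.00131) and Foxo1 fell by 33.3% (-0.58 ± 0.11, adjusted p = 0.000236). Trim55 was 1.19-fold higher (0.25 ± 0.10, adjusted p = 0.046), a result lost on leaving out any of 8 libraries (10 Hz replicates 3 to 6 and 1 Hz replicates 3 to 6, adjusted p up to 0.126). At 10 Hz against 4 Hz, Asb2 fell by 43.3% (-0.82 ± 0.17, adjusted p = 0.00122) and Foxo1 fell by 29.4% (-0.50 ± 0.11, adjusted p = 0.0023), while Fbxo32 was 1.33-fold higher (0.41 ± 0.13, adjusted p = 0.0192) and Fbxo30 1.3-fold higher (0.38 ± 0.13, adjusted p = 0.0416). For Asb2, Foxo1 and Fbxo32 the 10 Hz and 4 Hz libraries did not overlap (6.2% of all genes). The Fbxo32 difference missed the threshold without 10 Hz replicate 3 (0.30, adjusted p = 0.0768) or 4 Hz replicate 6 (0.34, adjusted p = 0.0681), and that of Fbxo30 without any of 8 libraries (10 Hz replicates 1, 2, 3 and 5 and 4 Hz replicates 1, 3, 4 and 6, adjusted p up to 0.128). Foxo3 at 10 Hz against 4 Hz was -0.32 (adjusted p = 0.0534), and passed without 10 Hz replicate 4 (adjusted p = 0.028) or 10 Hz replicate 6 (adjusted p = 0.0266).

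The small non-polyadenylated RNA moved with several of these genes. Across the 24 libraries, with each condition centred on its mean, the correlation of the log level with the log share was -0.664 for Asb2, -0.592 for Foxo3 and -0.553 for Foxo1, and 0.067 for Fbxo32. For Trim55 it was -0.265. Within the 6 libraries at 10 Hz alone it was -0.943 for Trim55, -0.921 for Foxo1, -0.882 for Asb2, -0.839 for Foxo3 and -0.266 for Fbxo32. These are descriptions over libraries that share their conditions. At 10 Hz, replicates 1 to 3 had shares at or above the lowest control (96.5 CPM) and replicates 4 to 6 shares below it. Splitting the 10 Hz libraries there was decided after seeing the data. The share already ran opposite to Asb2, Trim55 and Foxo3 in these same 6 libraries. The p-values of the split are therefore no separate test of these genes. Set against control, the 3 libraries with the higher share gave Asb2 0.01 (adjusted p = 0.987), Trim55 0.44 (adjusted p = 0.0362) and Foxo3 -0.58 (adjusted p = 0.0369), and the 3 with the lower share gave Asb2 0.71 (adjusted p = 0.0176), Trim55 0.85 (adjusted p = 9.68e-06), Fbxo40 0.54 (adjusted p = 0.00998) and Foxo3 -0.17 (adjusted p = 0.504). With the share as a covariate Asb2 was 0.43 at 1 Hz (adjusted p = 0.503) and 0.53 at 4 Hz (adjusted p = 0.198), and none of the 9 differences that passed at these frequencies did so with it. Trim55 at 10 Hz was 0.62 (adjusted p = 0.00113). Of the 9 differences that passed between frequencies only that of Foxo3 from 1 Hz to 4 Hz did (-0.42, adjusted p = 0.00769). Because the share did not overlap between control and these frequencies, it and the light cannot be told apart there.

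**Figure D4:**
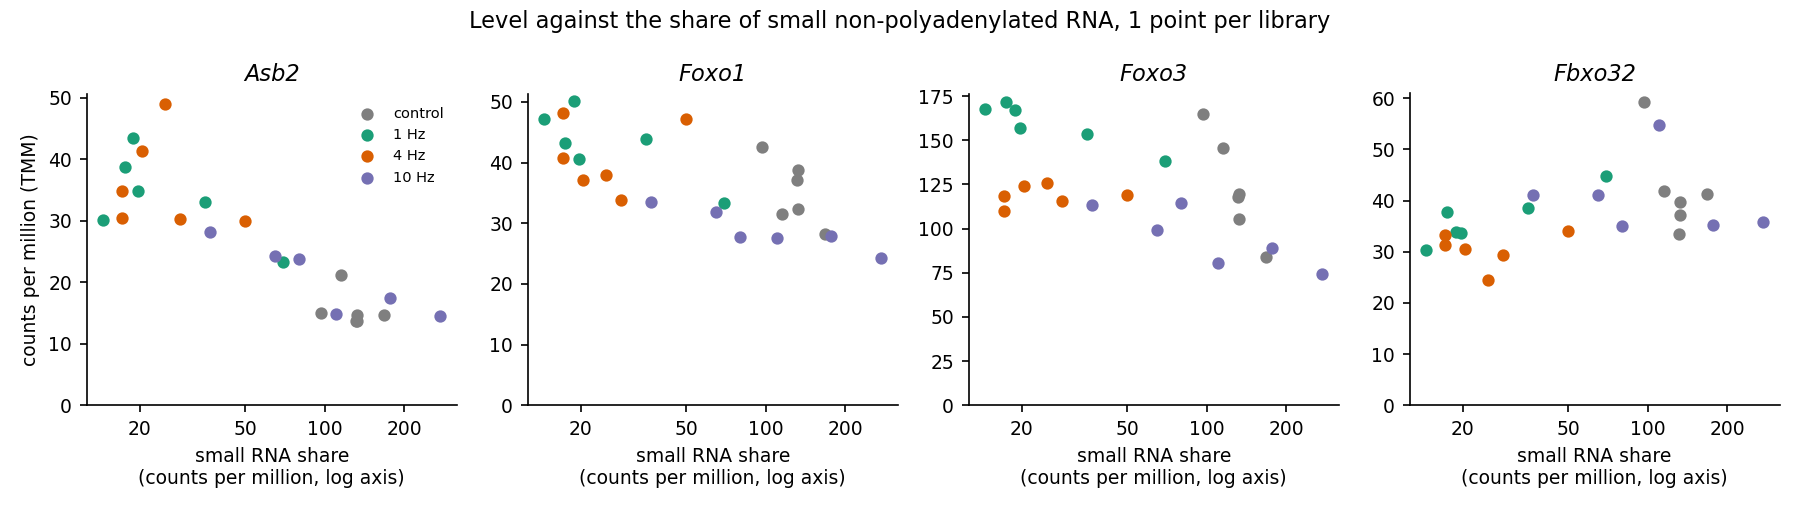
Level of Asb2, Foxo1, Foxo3 and Fbxo32 in CPM (vertical axis) against the share of small non-polyadenylated RNA in CPM (horizontal log axis), 1 point per library, coloured by condition. Asb2 runs from 49 CPM among libraries with low shares to 13.7 CPM among controls. The 10 Hz libraries spread over 37.0 to 272 CPM small RNA, past the highest control at 167 CPM. Their mean lay between control and the other frequencies for Asb2 and Fbxo32, and below control for Foxo1 and Foxo3.

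The members did not move as a block from library to library. With each condition centred on its mean, over 24 libraries, Trim63 went with Foxo3 (r = 0.796, Spearman's rho 0.626) and with Trim54 (r = 0.73, rho 0.781), and Trim54 with Asb2 (r = 0.719, rho 0.67). Fbxo30 ran opposite to Trim54 (r = -0.698, rho -0.671) and Trim63 (r = -0.642, rho -0.708). The best known atrophy pair, Fbxo32 and Trim63, gave r = 0.279 (rho 0.169), and Fbxo32 and Foxo1 gave r = 0.112. With the 2 most extreme libraries left out, the Trim63 and Foxo3 value was 0.646 and the Fbxo32 and Trim63 value -0.00804. The libraries share depth, scaling and the small RNA share, and the correlations are descriptions.

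By likeness over all 24 libraries (Pearson's r of log CPM among 10101 genes with a mean of at least 5 CPM), the genes closest to Fbxo32 were Lyn (0.782), a Src-family kinase, Otud7b (0.772), a deubiquitinase, and Ampd3 (0.757), an AMP deaminase. Those closest to Trim63 were Pnkd (0.808), Mid1ip1 (0.796) and Klhdc3 (0.794), and those closest to Foxo1 were Plekha2 (0.925), Ypel2 (0.92) and Nr3c1 (0.903), the glucocorticoid receptor. Ampd3 fell by 34.1% at 1 Hz and fell by 38.8% at 4 Hz (adjusted p = 3.34e-05 and 2.58e-06). Nr3c1 rose 39.3% at 1 Hz (adjusted p = 0.0071) and differed by 12.1% at 4 Hz and by -22.6% at 10 Hz (adjusted p = 0.341 and 0.109).

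Around the 7 ligases, 22 other ubiquitin ligases of muscle were listed and 21 tested. At 1 Hz 9 rose and 1 fell, with a median log2 fold change of 0.15 beside -0.01 for all genes, at 4 Hz 4 rose and 5 fell (median -0.09 beside -0.01), and at 10 Hz none rose and 2 fell (median -0.15 beside -0.01). Klhl41, a sarcomere-stabilising ligase adaptor, rose 64.4% at 1 Hz (adjusted p = 0.000143) and 79.3% at 4 Hz (adjusted p = 1.51e-05), and Trim72, the membrane repair protein MG53, rose 60.6% and 74.8% (adjusted p = 0.000157 and 1.52e-05). Traf6, a signalling ligase, fell by 22.3% at 1 Hz and fell by 35.9% at 4 Hz (adjusted p = 0.00647 and 2.4e-05). At 10 Hz Cblb fell by 25.6% and Smurf1 fell by 20.4% (adjusted p = 0.00462 and 0.0142), while at 1 Hz Cblb rose 20.8% (adjusted p = 0.0143). Of 10 other Asb genes tested, 2 rose and 1 fell at 1 Hz, 3 rose and 1 fell at 4 Hz and 1 rose and 1 fell at 10 Hz, with medians of 0.07, -0.08 and -0.06. Asb5, a muscle relative of Asb2, rose 22% at 1 Hz, 59% at 4 Hz and 34.5% at 10 Hz (adjusted p = 0.00418, 4.42e-07 and 0.00149).

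The 21 partner genes (cullins, adaptors, ubiquitin-activating and conjugating enzymes and deubiquitinases) gave 2 higher and 5 lower at 1 Hz, 3 and 4 at 4 Hz and 1 and 0 at 10 Hz, with medians of -0.07, 0.03 and 0.03. Rnf7, the RING subunit of the cullin 5 ligases that Asb2 joins, rose 20.4% at 1 Hz, 53.9% at 4 Hz and 27.5% at 10 Hz (adjusted p = 0.012, 2.68e-06 and 0.0119). Skp1, the adaptor that holds F-box proteins, fell by 22.5% at 1 Hz (adjusted p = 0.0106) and Cul1, its scaffold, fell by 20.6% at 4 Hz (adjusted p = 0.0114). Of 19 genes for reported substrates of these ligases, 12 rose and 2 fell at 1 Hz (median 0.54), 11 rose and 2 fell at 4 Hz (median 0.47) and 1 rose and 1 fell at 10 Hz (median 0.05). Of the 19, 10 encode sarcomere proteins and 4 are also among the muscle markers. Myh2 was up 133% at 1 Hz (adjusted p = 3.47e-05) and Myl2 was up 189% at 4 Hz (adjusted p = 1.68e-05). Myh2 also averaged 72.2 CPM at 4 Hz beside 26.4 in control, and Myl2 20.8 CPM at 1 Hz beside 11.2 in control. Myod1, a target of atrogin-1, rose 185% at 4 Hz (adjusted p = 2.15e-05). Its mean was 36.1 CPM in control and 81.3, 103 and 61.8 CPM at 1, 4 and 10 Hz, and 4 Hz did not differ from 1 Hz (adjusted p = 0.349 by edgeR). Irs1, the target of Fbxo40, fell at all 3 frequencies, with changes of -34.2%, -39.5% and -27.2% at 1, 4 and 10 Hz (adjusted p = 0.000173, 1.41e-05 and 0.0138).

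Of 28 FoxO target genes, 9 rose and 5 fell at 1 Hz (median 0.13), 11 rose and 7 fell at 4 Hz (median 0.17) and 1 rose and 2 fell at 10 Hz (median -0.01). Pik3ip1, an inhibitor of PI3-kinase, rose 68.7% at 1 Hz and 58.8% at 4 Hz (adjusted p = 0.0022 and 0.00466), and Pdk4, which blocks pyruvate oxidation, rose 52.3% at 1 Hz (adjusted p = 0.000123). Txnip, which holds back glucose uptake, fell by 68.7% at 1 Hz (adjusted p = 1.04e-06), Irs2 fell by 62.2% at 4 Hz (adjusted p = 2.95e-07), and Cited2 fell at all 3 frequencies, with changes of -24.6%, -43.8% and -31% at 1, 4 and 10 Hz (adjusted p = 0.00315, 1.3e-06 and 0.00297). Of 27 tested genes that act on FoxO proteins or relate to them, 11 rose and 5 fell at 1 Hz, 4 rose and 7 fell at 4 Hz and 1 rose and 1 fell at 10 Hz, with medians of 0.07, -0.06 and -0.06. Igf1r, the IGF-1 receptor, rose 72.9% at 1 Hz and 36% at 4 Hz (adjusted p = 3.69e-05 and 0.00564), and Skp2, an F-box protein reported to degrade FoxO1, fell by 49.7% at 1 Hz (adjusted p = 6.38e-05). Stk4, the kinase MST1, fell by 33.6% at 1 Hz and fell by 37.1% at 4 Hz (adjusted p = 1.01e-05 and 8.95e-07). Sgk1, an Akt-related kinase that phosphorylates FoxO3, rose 58% at 1 Hz (adjusted p = 0.000104) and fell by 33.6% at 4 Hz and fell by 38.2% at 10 Hz (adjusted p = 0.000222 and 0.000896), with means of 277 CPM in control and 437, 184 and 171 CPM at 1, 4 and 10 Hz.

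Another list held genes linked to the response of muscle to denervation, in which Fbxo32 and Trim63 are known to rise. Of 11 tested, 9 rose and none fell at 1 Hz, 8 rose and none fell at 4 Hz and 1 rose at 10 Hz, with medians of 0.67, 0.69 and 0.19. Gdf5, a BMP ligand, rose 129% at 1 Hz and 130% at 4 Hz (adjusted p = 0.000345 and 0.000221), and Ncam1, the neural cell adhesion molecule, rose 83.1% at 1 Hz (adjusted p = 3.08e-05). Ncam1 averaged 255 CPM at 4 Hz, beside 264 at 1 Hz and 144 in control. Myog, the myogenic factor that activates both ligase genes after denervation and that also belongs to the muscle markers, rose 80.2% at 4 Hz and 53.7% at 10 Hz (adjusted p = 7.73e-05 and 0.0142). At 1 Hz Myog averaged 408 CPM, beside 294 in control. The muscle markers rose at 1 Hz and 4 Hz too, and whether this list reports more than muscle RNA was not tested.

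**Figure D5:**
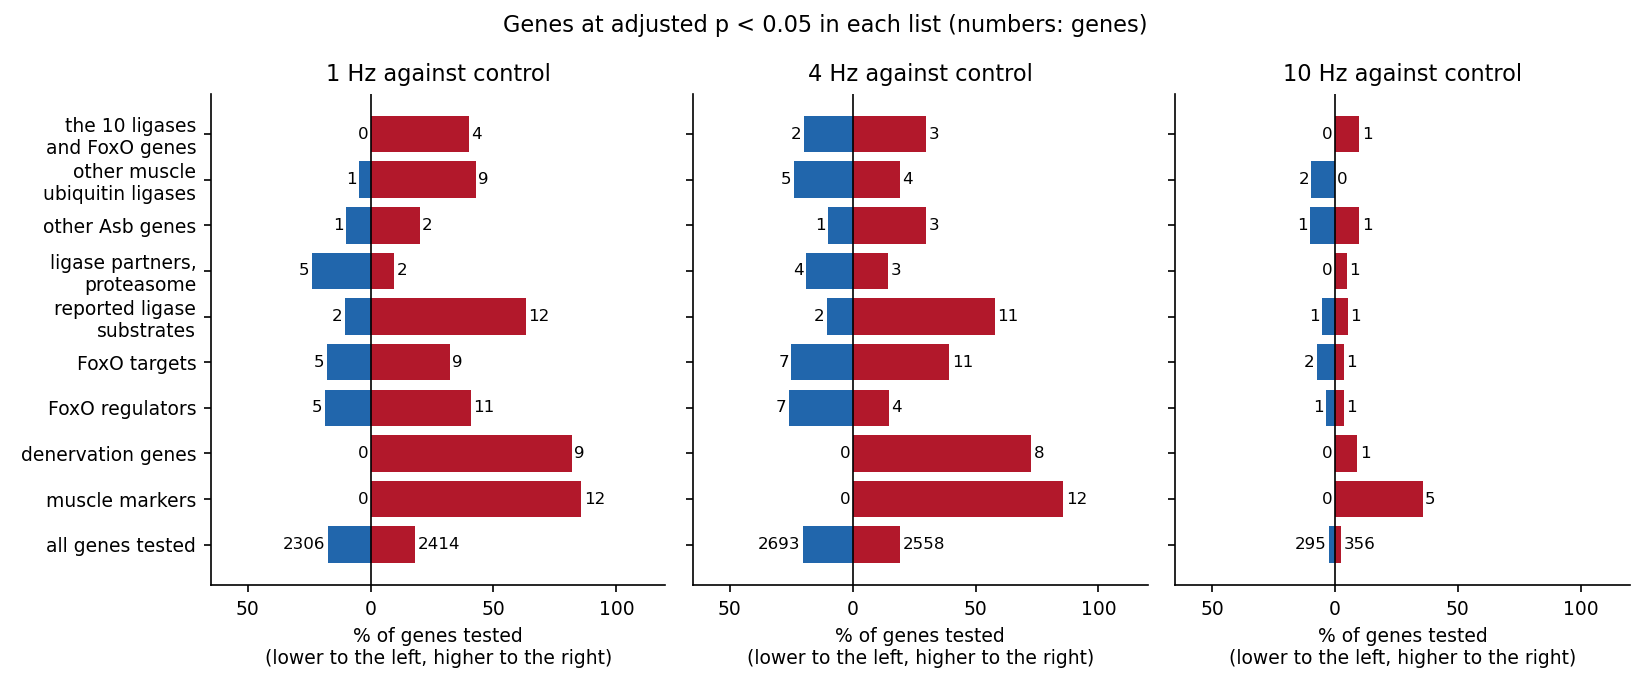
Share of the genes tested in each list (horizontal axis, percent) that rose (red, right) or fell (blue, left) against control at an adjusted p under 0.05, with the number of genes at each bar and all genes tested in the last bar. Denervation genes and muscle markers reach 9 of 11 and 12 of 14 at 1 Hz, while the 10 ligases and FoxO genes show 4 higher at 1 Hz, 3 higher and 2 lower at 4 Hz and 1 higher at 10 Hz.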

How the data were processed

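The tables deposited by the authors hold, for each of 24 libraries and without pooling, estimated counts and TPM per gene made with the nf-core RNA-seq pipeline on GRCm39 per the study's methods. The submitters' processing notes name Salmon and STAR without a role, and the deposited tables are named for Salmon. They also name BWA 0.7.12-r1039 and bedtools 2.25.0. The methods give BWA-MEM for mapping and bedtools, in another version, for quality metrics. Libraries were poly(A)-selected, and an unnamed set of low-input libraries was ribodepleted. Whether counting used strand, and the annotation release, are not given in the sources used here.

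Estimated counts, 6.62% to 10.6% of which were not whole, were rounded. Genes were kept by edgeR's filterByExpr (minimum count 10), which left 13318 of 56941 genes holding 99.77% of counts. Counts were scaled by the TMM method and fitted by edgeR 4.0.16 (R 4.3.3) with condition as the only term, giving 6 contrasts and Benjamini-Hochberg adjusted p-values. TPM values were tested with limma 3.58.1. Alternatives with DESeq2 1.42.0 and apeglm 1.24.0, other scalings, filters and pseudocounts, a replicate block, a small RNA covariate and single libraries left out are given at the end. The fits were tested on simulated data. Levels are CPM (TMM) or TPM.

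The 10 genes and all lists were chosen with earlier results of these data known. All 10 are named. From each other list at most 2 genes per direction and comparison were chosen for naming. These had the largest changes at an adjusted p under 0.05 and a mean of at least 5 CPM. Cblb and Sgk1, chosen by their falls at 10 Hz, are also described at other frequencies, outside this rule. Some cell type markers are named for their level alone. The 3 genes most alike Fbxo32, Trim63 and Foxo1 are named as well. The split of the 10 Hz libraries by small RNA share was added after seeing the data. Promoters were read from the GRCm39 genome with GENCODE M39 starts. No 2 libraries of a condition agreed within sampling noise. MuRF genes are paralogs, so reads shared between them may be split by the estimate.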

Additional observations from a re-analysis of the deposited data

Results flagged for a closer look

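In 40 sets of 6 libraries (10 genes in 4 conditions), Dixon's test at the 95% level marked 5 libraries as standing apart from the rest of their set, where chance gives about 2. Fbxo32 read 59.2 CPM in control replicate 2 and 54.8 CPM in 10 Hz replicate 3, each the highest of its 6. Trim63 read 50.1 CPM in 10 Hz replicate 2, the lowest of its 6. Control replicate 4 was the highest of its 6 for Trim54, at 98.1 CPM, and for Asb2, at 21.2 CPM. The 10 Hz replicate 2 library also had the highest small RNA share, 272 CPM. The cause of these values was not tested.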

How the results depend on the processing

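Some 95% intervals of Trim63, Fbxo40 and Foxo4 hold changes in either direction, so these genes are not shown to be unchanged, and the shallowest Asb2 value rested on 59 counts. The called counts were 1 gene at 1 Hz, 3 at 4 Hz and 1 at 10 Hz against control, 0 at 4 Hz against 1 Hz, 3 at 10 Hz against 1 Hz and 2 at 10 Hz against 4 Hz. Leaving out 1 library at a time gave 1, 2 to 4, 1 to 2, 0, 3 and 1 to 2 in the same order. At 10 Hz the second gene, Trim54, came without control replicate 4. At 10 Hz against 4 Hz the count was 1 without 10 Hz replicates 1, 2, 3 or 4 or 4 Hz replicates 3 or 5. With the adjusted p alone, 4, 5, 1 and 4 genes passed at 1 Hz, at 4 Hz, at 4 Hz against 1 Hz and at 10 Hz against 4 Hz. With the small RNA share as a covariate 0 were called at 1 Hz, at 4 Hz, at 10 Hz against 1 Hz and at 10 Hz against 4 Hz, and 1 (Trim55) at 10 Hz against control. The 10 Hz count became 4 in the libraries with a small RNA share below the lowest control, a split made after seeing the data and no separate test. By limma on log2(TPM + 1), on log2(TPM + 0.1) and without a filter it was 0, and at 10 Hz against 4 Hz each of the 3 gave 1, as did a minimum of 5 CPM, total count scaling and a fit of only the 12 libraries compared. TPM shifted the median of all genes at 4 Hz by -0.16 and total counts by -0.11.

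No pairing by replicate number was seen: over 36 same-numbered pairs the correlation of deviations ran from -0.184 to 0.362 with a median of 0.0173. Over 180 differently numbered pairs it ran from -0.32 to 0.361 with a median of -0.013. These values cannot show how the cultures were plated or processed. With a replicate block the counts were 1, 3, 1, 0, 3 and 1 in the order above, Foxo1 at 1 Hz was 0.29 (adjusted p = 0.0517) and Trim55 at 10 Hz against 1 Hz 0.25 (adjusted p = 0.063).

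Directions reversed where the value was near 0 or under the covariate, in no case with a passing p. Under the covariate Fbxo40 was -0.0863, Foxo1 -0.0443, Foxo3 -0.0439 and Trim63 -0.228 at 1 Hz, Foxo1 -0.117 and Trim63 -0.0951 at 4 Hz, Trim63 -0.00421 at 10 Hz, and Foxo3 0.0261 at 10 Hz against 4 Hz. On the TPM scales Foxo4 at 1 Hz was -0.0125 to -0.0126, Fbxo30 at 10 Hz -0.0921 to -0.0934 and Trim63 at 10 Hz -0.0231 in each. Total count scaling gave Fbxo40 -0.0375 and Foxo4 -0.0525 at 1 Hz and Fbxo30 -0.00512 at 10 Hz. In the 10 Hz libraries at or above the lowest control share Fbxo32 was 0.00218 and Trim63 -0.0399, and below it Fbxo30 was -0.0121. With 1 library left out, values on both sides of 0 were seen at 10 Hz for Fbxo30 (-0.0383 to 0.0777), Fbxo32 (-0.164 to 0.0768), Foxo4 (-0.0945 to 0.0358) and Trim63 (-0.057 to 0.169), at 1 Hz for Fbxo40 (-0.0339 to 0.0891) and Foxo4 (-0.00514 to 0.127), and at 4 Hz for Foxo3 (-0.139 to 0.061) and Foxo4 (-0.133 to 0.0151). The cause was not tested. Over single genes, 405 of the other alternatives kept the side of the threshold, 46 fell short of it, 16 passed it and 23 reversed.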

Other observations

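Foxo6, the fourth FoxO gene, was not among the 10 and was followed only in the list of FoxO regulators: it rose 58.1% at 1 Hz (33.1 against 20.9 CPM, adjusted p = 0.022 by edgeR). Prmt1, a methyltransferase that modifies FoxO1, rose 51.3% at 4 Hz and 33.8% at 10 Hz (adjusted p = 2.93e-05 and 0.0104). Sirt1, a deacetylase of FoxO proteins, fell by 37% at 4 Hz (adjusted p = 0.00493). Gadd45a, a FoxO target and denervation-responsive gene, rose 48.4% at 4 Hz (adjusted p = 6.59e-05), and Ctsl, the lysosomal protease cathepsin L, rose 26.6% at 10 Hz (adjusted p = 0.0326).

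Other cell types and states were followed by their markers. Of 10 markers of myoblasts and cycling cells, 1 rose and 2 fell at 1 Hz, 4 rose and 3 fell at 4 Hz and none passed at 10 Hz. Their summed level was 216 to 256 TPM in control, 163 to 215 at 1 Hz, 149 to 198 at 4 Hz and 190 to 248 TPM at 10 Hz. Pcna alone made up most of that sum, with means of 169 TPM in control and 129, 116 and 158 TPM at 1, 4 and 10 Hz. The sum therefore mainly follows 1 gene. Of 4 fibroblast markers tested, 2 rose at 1 Hz, Col3a1 by 50.6% and Pdgfra by 37.1% (adjusted p = 0.0123 and 0.0257), 1 fell at 4 Hz, and none passed at 10 Hz. Their sum was 89.6 to 275 TPM in control and 106 to 238 TPM with light. The adipocyte markers Cfd, Plin1 and Lep were at or near 0, with Pparg tested and 32.5% higher at 1 Hz (adjusted p = 0.00311). Of the 5 small RNAs tested, 3 fell at 1 Hz, 2 fell at 4 Hz and none passed at 10 Hz, and Rn7sk fell by 82.2% at 1 Hz and fell by 79.8% at 4 Hz (adjusted p = 0.000101 and 9.84e-05). The part of the cell type markers in the results for the 10 genes was not tested.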
